A study of Homo sapiens with 8 samples.

Results

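Mature microRNAs (miRNAs) were compared between HCT116 cells rescued with DICER carrying the substitution R1003Q and HCT116 cells rescued with DICER carrying R821H. The comparison took all libraries whose titles name these DICER forms, 2 for R1003Q and 2 for R821H, which is 4 of the 8 libraries of the series. The other libraries are from HCT116 cells rescued with wild-type (WT) or R1855L DICER, 2 of each, and they entered the fits so that the spread was estimated from all groups. HCT116 is a human colorectal carcinoma line. Each library came from 100 µg of TRIzol-extracted total RNA and was made by AQ-seq, a small-RNA method designed to lower ligation bias. The word rescue is the only account the labels give of what DICER the cells had beforehand, and the labels name neither the promoter of the rescue construct nor whether a line is 1 clone. Nor do they state whether the replicates were grown as separate cultures, so a p-value here measures how libraries vary, and that variation may be technical. The comparison asks how closely the miRNAs of the R1003Q and R821H rescues resemble each other, and how large a difference these libraries leave possible.

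DICER cuts the precursor hairpin near its loop and releases a duplex of a 5p and a 3p strand, from which Argonaute keeps mainly 1 strand. Residue R821 lies in the platform region and R1003 in the PAZ region, which together hold the ends of the hairpin and so help to set where DICER cuts. A shift of the cut can alter both the amount of a miRNA and which strand is kept, because strand choice depends on the ends of the duplex. R1855 lies in the double-stranded RNA-binding domain at the other end of the protein.

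The sequences of the miRNAs on which the comparison turns come from RefSeq (GRCh38.p14), read 5′ to 3′, with the seed (bases 2 to 8) in capitals. Hairpin positions are from the same table and host genes from the GENCODE annotation, both on GRCh38. Of the 625 miRNA names tested, 542 (86.7%) matched a RefSeq entry. The 9 tested let-7 5p strands share 1 seed, and 3 are shown because the median of this family moved with 1 library. let-7a-5p comes from 3 hairpins, let-7g-5p from one at chr3:52268278-52268361 (minus strand, intron of WDR82) and miR-98-5p from one at chrX:53556223-53556341 (minus strand, intron of HUWE1).
let-7a-5p: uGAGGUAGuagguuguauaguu
let-7g-5p: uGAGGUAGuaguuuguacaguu
miR-98-5p: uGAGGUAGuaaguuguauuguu
The strands miR-454-3p and miR-301a-3p share a seed, come from introns of SKA2 at chr17:59137758-59137872 and chr17:59151136-59151221 (minus strand), and had the lowest log2 fold changes at a mean of at least 50 CPM without overlap.
miR-454-3p: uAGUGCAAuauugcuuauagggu
miR-301a-3p: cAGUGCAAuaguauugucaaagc
miR-33b-5p, from an intron of SREBF1 at chr17:17813836-17813931 (minus strand), had the highest log2 fold change by the same rule and is known to act in cholesterol control.
miR-33b-5p: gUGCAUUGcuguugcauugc
Both strands of miR-92b, from chr1:155195177-155195272 (plus strand), are shown because their ratio had the lower unadjusted p of the 2 strand ratios under 0.05.
miR-92b-5p: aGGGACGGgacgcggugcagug
miR-92b-3p: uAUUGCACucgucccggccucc
miR-21-5p and miR-222-3p were the most abundant miRNAs, and miR-484 had the largest fall in R1855L among the called miRNAs.
miR-21-5p: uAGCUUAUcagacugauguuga
miR-222-3p: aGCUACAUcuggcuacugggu
miR-484: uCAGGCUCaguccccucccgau

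The depth of the libraries limits the comparison. The R1003Q libraries held 1143373 and 675934 reads, and the R821H libraries held 3340304 and 841857 reads (replicates 1 and 2). R821H replicate 1 was thus the deep library of the 4, and WT replicate 2 and R1855L replicate 1 were the other deep libraries of the series. A count of 0 allows 3 reads, which is 2.62 and 4.44 CPM (reads scaled to the same total in each library) in the R1003Q libraries and 0.898 and 3.56 CPM in the R821H libraries, counting error only. These floors are scaled by the library total alone. The levels given below are CPM after TMM scaling, which adjusts each total by a factor, so the 2 scales differ somewhat. miR-21-5p took 33.4% and 33.3% of reads in the R1003Q libraries, against 40.8% and 32.5% in the R821H libraries. Of the 1639 names listed in any of the 4 libraries, 853 were listed in all 4. Some names were listed in both libraries of one group and in neither of the other. These were 14 in R1003Q, with at most 3 reads, and 72 in R821H, with at most 11 reads. Whether R821H replicate 1 stands apart by its depth or otherwise cannot be told apart, so values without it are given beside many of the results.

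No miRNA differed between the R1003Q and R821H rescues at an adjusted p under 0.05. edgeR's quasi-likelihood test called 0 of 625 miRNAs (0% called), and 10 (1.6%) had an unadjusted p under 0.05. DESeq2 called 0, with 4 at an unadjusted p under 0.05. When only the 5 shallow libraries were fitted, a choice made after seeing the data, edgeR called 9, on 1 residual degree of freedom and with the spread taken from the R1003Q pair alone. The 2 R1003Q libraries lay above both R821H libraries for 123 miRNAs (19.7%) and below both for 105 (16.8%), so 228 (36.5%) did not overlap in either direction. Over the 334 miRNAs of at least 50 CPM, 126 (37.7%) did not overlap. With 2 libraries in each group, many miRNAs would fail to overlap even if the groups did not differ. Log2 fold changes, R1003Q over R821H, had a median of 0.00 over the 625, and 310 (49.6%) were above 0. They were beyond 1 for 34 miRNAs, of which 4 had a mean of at least 50 CPM.

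Among 334 miRNAs of at least 50 CPM, the SD of the log2 difference was 0.31 between the R1003Q libraries and 0.68 between the R821H libraries. R1003Q replicates 1 and 2 differed from R821H replicate 2 by an SD of 0.35 each, and from R821H replicate 1 by 0.66 and 0.63. By this measure of levels, each pair across the groups lay between the pair within R1003Q and the pair within R821H. R821H replicate 2 was therefore nearer to either R1003Q library than to its own replicate. The number of these miRNAs that differed by over 2-fold was 4 within R1003Q and 42 within R821H, and 6, 4, 45 and 34 in the pairs of R1003Q replicate 1 and 2 with R821H replicate 2 and then with R821H replicate 1. R821H replicate 1 was the highest or lowest of the 4 libraries for 243 of the 334, against 142 and 130 for the R1003Q libraries and 153 for R821H replicate 2. The group means had a Pearson correlation of 0.989 over these miRNAs, as a description across miRNAs that share libraries, and 0.988 over all 625. The WT and R1855L pairs had SDs of 0.76 and 0.85.

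**Figure D1:**
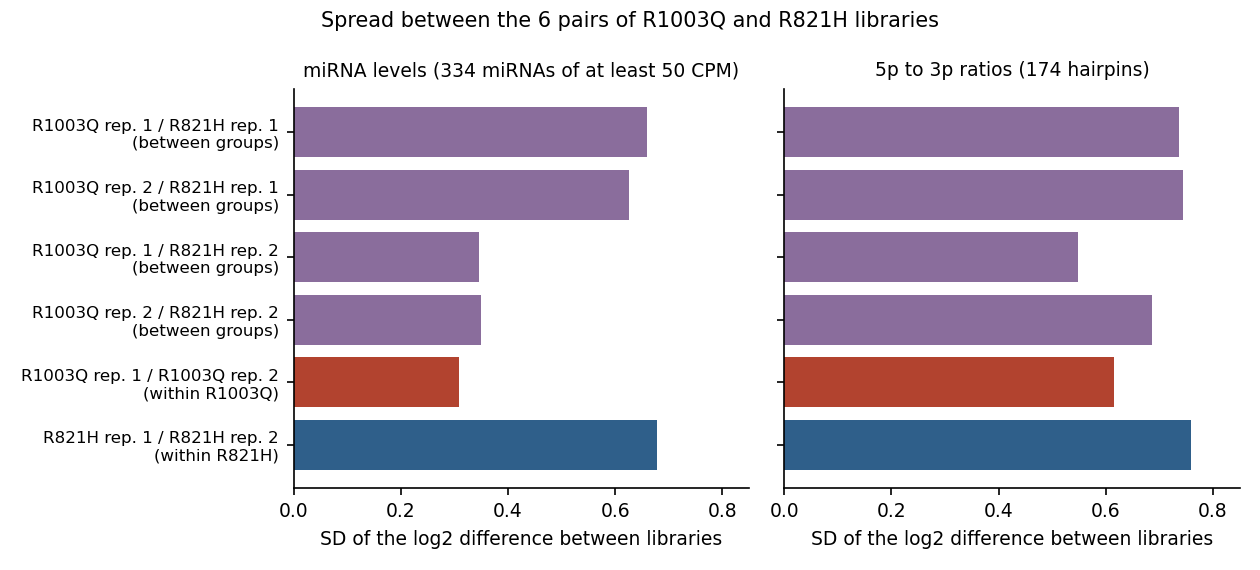
The bars give the SD of the log2 difference between 2 libraries for levels (left) and for log2 5p to 3p ratios (right); purple bars are pairs across groups, red is within R1003Q and blue within R821H. For levels every pair with R821H replicate 1 is at 0.63 or more, and the other pairs are at 0.31 to 0.35.

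The most abundant miRNAs had small estimated differences, though not all of their intervals were narrow. The 15 highest miRNAs held 66.4% of all reads of the 4 libraries, and their log2 fold changes lay between -0.47 and 0.53. miR-21-5p, widely found in carcinomas, had 340950 and 320204 CPM in the R1003Q libraries, against 464280 and 325672 CPM in the R821H libraries. The groups overlapped, since R821H replicate 1 was the highest library and R821H replicate 2 lay between the R1003Q libraries. The log2 fold change was -0.26 (SE 0.41, 95% interval -1.21 to 0.70), and 0.05 without R821H replicate 1. miR-222-3p, whose clustered partner is miR-221, had 104483 and 87923 CPM in the R1003Q libraries, against 87693 and 112980 CPM in the R821H libraries. It overlapped between the groups, with a log2 fold change of -0.06 (SE 0.25, 95% interval -0.64 to 0.52). miR-221-3p had 32512 and 27768 CPM in the R1003Q libraries, against 28966 and 39000.1 CPM in the R821H libraries, a log2 fold change of -0.17. miR-222-3p and miR-221-3p were at -0.20 and -0.34 without R821H replicate 1. The values for miR-31-5p, a miRNA of colorectal tumour cells, were 54025 and 42835 CPM in the R1003Q libraries, against 42928 and 40857 CPM in the R821H libraries. R1003Q replicate 1 was the highest and the groups overlapped, at a log2 fold change of 0.21 (SE 0.26, 95% interval -0.39 to 0.81).

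The remaining abundant miRNAs also had small log2 fold changes, though several intervals reached beyond 2-fold. The log2 fold change of miR-27a-3p was 0.34 (SE 0.31, 95% interval -0.38 to 1.07) and that of miR-29a-3p, which is known to target collagen genes, was -0.47 (SE 0.30, 95% interval -1.18 to 0.23). miR-27a-3p was above both R821H libraries in both R1003Q libraries, and miR-29a-3p was below both. miR-16-5p, a cell-cycle regulator, had 10729 and 10469.9 CPM in the R1003Q libraries, against 18210.3 and 9374 CPM in the R821H libraries. R821H replicate 1 was the highest and R821H replicate 2 the lowest, at a log2 fold change of -0.38 (SE 0.46, 95% interval -1.46 to 0.70), which was 0.21 without R821H replicate 1. miR-4521 had 8753 and 14135 CPM in the R1003Q libraries, against 9004 and 15679 CPM in the R821H libraries, where the lower and the higher library of each group differed by more than the groups did. Its log2 fold change was -0.11 (SE 0.56, 95% interval -1.41 to 1.19). miR-100-5p, miR-24-3p, miR-10a-5p, miR-31-3p, miR-92a-3p and miR-30c-5p were at 0.08, 0.19, 0.13, -0.18, -0.11 and 0.11. These 6 were, without R821H replicate 1, at -0.10, 0.14, 0.14, 0.24, -0.28 and 0.10, and miR-4521 was at -0.42. miR-1260b had 14534 and 13426 CPM in the R1003Q libraries, against 9838 and 9462 CPM in the R821H libraries, both R1003Q libraries being above the R821H libraries. Its log2 fold change was 0.53 (SE 0.55, 95% interval -0.76 to 1.83), the highest of the 15. miR-31-5p, miR-27a-3p, miR-29a-3p and miR-1260b were at 0.27, 0.41, -0.28 and 0.59 without R821H replicate 1. Among these 15, 9 had a 95% interval within 2-fold, 14 within 3-fold and 15 within 4-fold. The groups did not overlap for 6 of the 15, read against the background of 36.5%.

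**Figure D2:**
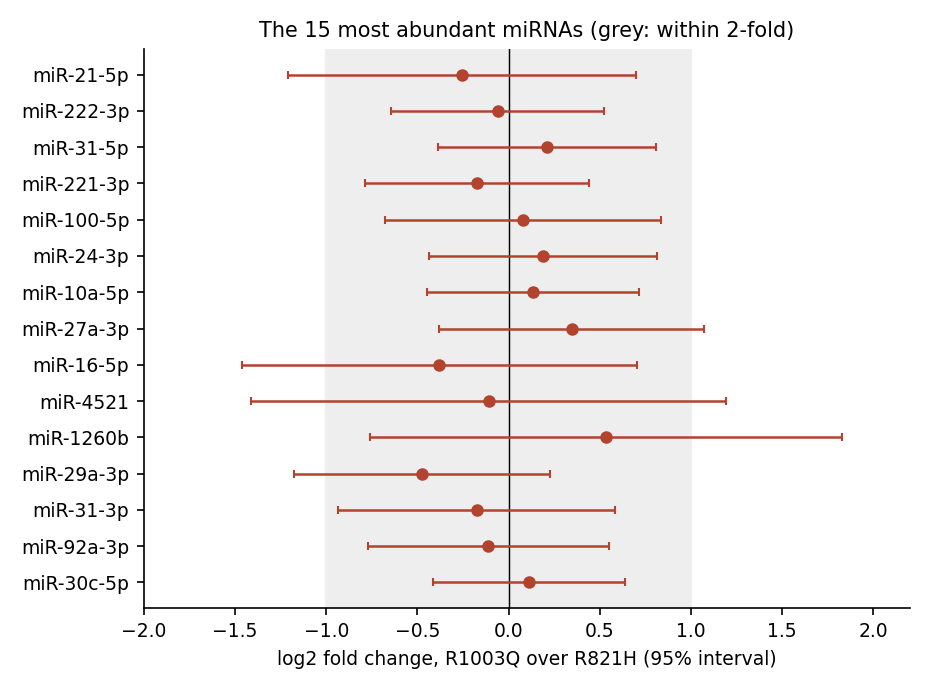
Points are log2 fold changes, R1003Q over R821H, of the 15 most abundant miRNAs in order of level, and bars are 95% intervals of the edgeR fit. All 15 intervals include 0, and 9 lie within the grey 2-fold band.

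The intervals show how large a difference remained possible. A 95% interval lay within 2-fold in both directions for 202 of 625 miRNAs (32.3%), within 3-fold for 406, within 4-fold for 504 (80.6%) and within 8-fold for 603. Each interval stands on its own, without adjustment for the number of miRNAs, so nominally 1 in 20 would miss its true value. With intervals widened to cover all 625 at once, 0 lay within 2-fold and 49 within 4-fold. The miRNAs whose interval stayed within 2-fold held 40.6% of the reads, with miR-21-5p not among them, and those within 4-fold held 97.1%. The median of the farthest bound was 2.42-fold over all miRNAs. It was 1.91-fold for the 95 miRNAs of at least 1000 CPM, 1.87-fold for the 165 from 100 to 1000 CPM, 2.57-fold for the 263 from 10 to 100 CPM and 4.28-fold for the 102 under 10 CPM. Within 2-fold were 52, 100, 50 and 0 miRNAs of these classes, and within 4-fold were 87, 153, 218 and 46. The bounds need all 4 libraries: the count within 2-fold was 63 and 68 without R1003Q replicate 1 and 2, and 90 and 74 without R821H replicate 1 and 2. These fits tested 674 to 686 names, so the shares were 9.22% to 13.1%. The spread behind the bounds was also estimated from the WT and R1855L libraries. With only the 4 libraries filtered and fitted, 247 of 533 miRNAs (46.3%) lay within 2-fold and 497 (93.2%) within 4-fold. With a term for deep against shallow libraries, 366 of 625 (58.6%) lay within 2-fold and 568 (90.9%) within 4-fold. Neither R1003Q library was deep, so that term was estimated from the other groups.

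**Figure D3:**
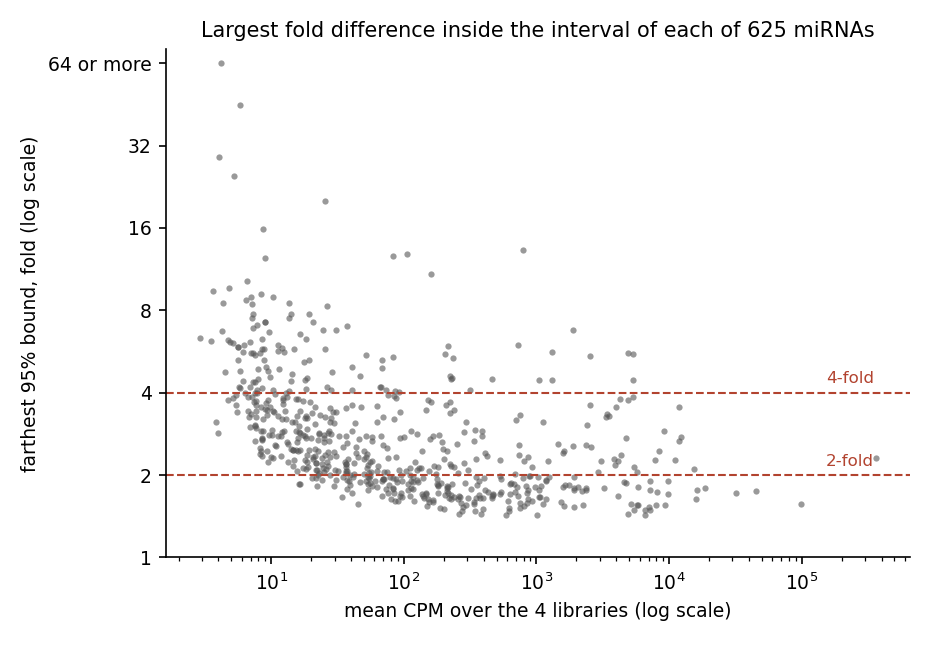
Each point is a miRNA, with its mean CPM over the 4 libraries against the fold at the farthest end of its 95% interval (both axes logarithmic, values over 64 drawn at 64). Below about 10 CPM no point falls under the 2-fold line, and above 100 CPM most do.

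The 5 narrowest intervals of all belonged to miRNAs of middle level. miR-185-5p had 409 and 404 CPM in the R1003Q libraries, against 326 and 335 CPM in the R821H libraries, without overlap. Its log2 fold change was 0.30 (SE 0.19, 95% interval -0.15 to 0.75), so a 2-fold difference lay outside the interval. The same held for let-7a-3p at 0.12 (SE 0.20, 95% interval -0.35 to 0.58), and for miR-429, a miR-200 family member that represses ZEB1, at -0.03 (SE 0.20, 95% interval -0.51 to 0.44). miR-224-5p and miR-374b-5p had intervals of -0.33 to 0.65 and -0.21 to 0.77.

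The largest differences at a mean of at least 50 CPM without overlap were modest and mostly rested on R821H replicate 1. miR-33b-5p had 1084 and 928 CPM in the R1003Q libraries, against 408 and 473 CPM in the R821H libraries. Both R1003Q libraries were above both R821H libraries, and the R821H libraries were close to each other. The log2 fold change was 1.19 (SE 0.59, 95% interval -0.19 to 2.58), with an edgeR adjusted p of 0.997. It was 1.12 without R821H replicate 1 and 0.58 with a depth term in the model. It was among the 9 miRNAs called from the shallow libraries alone, a fit with 1 R821H library. The other strand of that hairpin, miR-33b-3p, had 373 and 422 CPM in the R1003Q libraries, against 291 and 270.4 CPM in the R821H libraries, and miR-33a-5p, the paralog from SREBF2, had 947 and 917 CPM in the R1003Q libraries, against 725 and 626 CPM in the R821H libraries. R1003Q was higher in both without overlap, at log2 fold changes of 0.50 and 0.46, neither past the threshold of edgeR (adjusted p = 0.997 each). Both were named after their values were seen, and values without R821H replicate 1 are not given for them. In WT, miR-33b-5p had 1113 CPM in the shallow and 481 CPM in the deep library.

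The next 4 highest were miR-1268a, miR-1268b, miR-6724-5p and miR-4707-5p, at 0.84, 0.83, 0.80 and 0.78. miR-1268a had 6156 and 6352 CPM in the R1003Q libraries, against 2008 and 4996 CPM in the R821H libraries, so R821H replicate 1 stood alone. Without that library the 4 values were 0.35, 0.35, 0.39 and 0.28. miR-1268a and miR-1268b are near-identical, and their reads may be shared.

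The 5 lowest were miR-454-3p, miR-301a-3p, miR-548n, miR-365a-3p and miR-335-5p. miR-454-3p had 74.2 and 108 CPM in the R1003Q libraries, against 319 and 135 CPM in the R821H libraries. R821H replicate 1 was more than 2-fold above every other library, and R821H replicate 2 was nearest to the R1003Q libraries. The log2 fold change was -1.33 (SE 0.90, 95% interval -3.44 to 0.77), which became -0.54 without R821H replicate 1. miR-301a-3p had 148 and 121 CPM in the R1003Q libraries, against 383 and 204 CPM in the R821H libraries, at a log2 fold change of -1.13 (SE 0.62, 95% interval -2.57 to 0.31) and of -0.57 without that library. miR-548n, miR-365a-3p and miR-335-5p were at -0.98, -0.86 and -0.85, and at -0.49, -0.03 and -0.21 without it. All 10 extremes were smaller in size without R821H replicate 1, 9 of them below 0.6, and larger without R821H replicate 2, between 1.28 and 1.83. With a depth term all 10 were below 0.6 in size.

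At a mean of at least 50 CPM, R821H replicate 1 lay more than 2-fold outside the other 3 libraries for 20 miRNAs, R821H replicate 2 for 2 and either R1003Q library for 0. miR-4286, named after its values were seen, had 374 and 576 CPM in the R1003Q libraries, against 215 and 2007 CPM in the R821H libraries. It lay lowest in R821H replicate 1 and highest in R821H replicate 2, so the R1003Q libraries fell between them, at a log2 fold change of -1.22 (SE 1.08, 95% interval -3.73 to 1.29). It was -2.05 without R821H replicate 1 and 1.12 without R821H replicate 2. miR-320b, one of a set of near-identical miRNAs that may share reads, had 269 and 270.1 CPM in the R1003Q libraries, against 149 and 571 CPM in the R821H libraries, in the same order. Its log2 fold change was -0.41, and it was -1.05 without R821H replicate 1 and 0.83 without R821H replicate 2. Other members of the family that shares the seed of miR-454-3p were closer. miR-130a-3p, miR-130b-3p and miR-301b-3p had log2 fold changes of -0.40, -0.26 and -0.19, and the 5 strands together had a median of -0.40, both with all libraries and without R821H replicate 1.

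**Figure D4:**
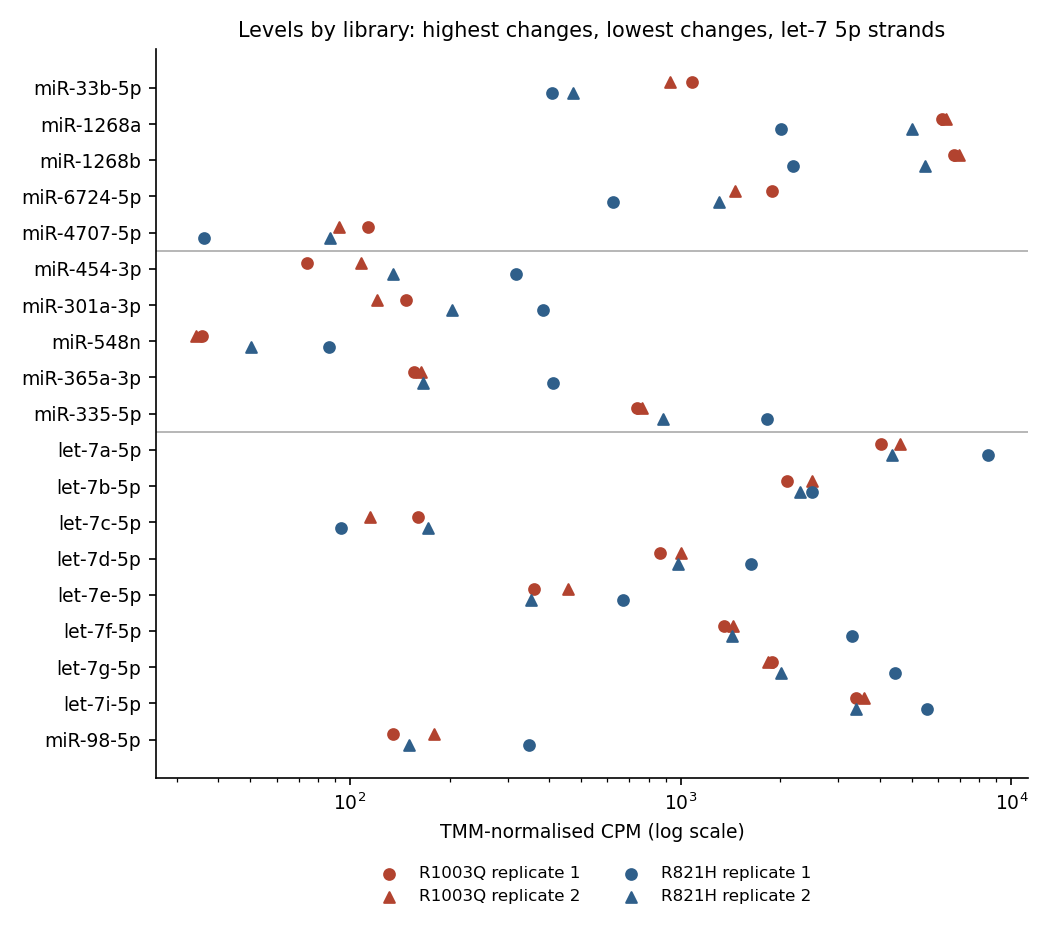
Points are TMM-normalised CPM per library on a logarithmic axis, with R1003Q (red) drawn above R821H (blue), circles for replicate 1 and triangles for replicate 2. For most let-7 5p strands the blue circle stands to the right of the other 3 points, and for miR-33b-5p both red points stand to the right of both blue points.

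Among the 10 miRNAs with an unadjusted p under 0.05, none passed after adjustment (smallest edgeR adjusted p = 0.997). The most abundant was miR-361-3p, with 158 and 131 CPM in the R1003Q libraries, against 224 and 256 CPM in the R821H libraries. The groups did not overlap, the log2 fold change was -0.73 (SE 0.29, 95% interval -1.41 to -0.05), and it was -0.79 without R821H replicate 1. miR-361-5p, the other strand, had a log2 fold change of -0.24. miR-185-3p had 63.5 and 62.6 CPM in the R1003Q libraries, against 25.6 and 36.9 CPM in the R821H libraries, also without overlap, at 1.04 (SE 0.34, 95% interval 0.25 to 1.83). The rest were miR-2114-5p, miR-345-3p, miR-3609, miR-3928-5p, miR-4664-3p, miR-4758-5p, miR-664a-5p and miR-6844, each under 25 CPM on average.

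Let-7 5p strands, whose family promotes differentiation and restrains growth, had a log2 fold change below 0 for 8 of 9 members, with a median of -0.48 beside 0.00 over all 625, and none was called. let-7a-5p had 4047 and 4612 CPM in the R1003Q libraries, against 8514 and 4357 CPM in the R821H libraries. let-7g-5p had 1886 and 1833 CPM in the R1003Q libraries, against 4456 and 2012 CPM in the R821H libraries. In both, R821H replicate 1 was far above the other 3 libraries, while R821H replicate 2 was close to the R1003Q libraries. The log2 fold changes were -0.57 (SE 0.68, 95% interval -2.16 to 1.01) and -0.80 (SE 0.71, 95% interval -2.45 to 0.85). The median was 0.02 without R821H replicate 1, with 4 of 9 members below 0, and -0.82 without R821H replicate 2. With a depth term it was 0.20, with 1 of 9 below 0. The summed level of the 9 strands was 14283 and 15715 CPM in the R1003Q libraries, against 27039.6 and 15146.5 CPM in the R821H libraries. The deep library was also the higher one in the other groups. The sum was 45804.5 CPM in the deep and 16706.7 CPM in the shallow WT library. In R1855L it was 31840.5 CPM in the deep and 10765.9 CPM in the shallow library. The 10 tested let-7 3p strands had a median of 0.13, with 7 above 0. The other 5p strands, let-7b-5p, let-7c-5p, let-7d-5p, let-7e-5p, let-7f-5p and let-7i-5p, were at -0.06, 0.06, -0.48, -0.33, -0.76 and -0.36. They were, without R821H replicate 1, at 0.03, -0.29, -0.04, 0.24, -0.01 and 0.07, and let-7a-5p and let-7g-5p were at 0.02 and -0.08. miR-98-5p was at -0.68 (SE 0.77, 95% interval -2.48 to 1.11) and at 0.08 without R821H replicate 1, and its 3p strand was at -0.34 (SE 0.27, 95% interval -0.97 to 0.28) and again -0.34 without it.

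let-7 group I precursors, which keep a longer overhang, had a median of -0.13 over 2 tested strands, and group II, whose precursors carry a shorter overhang, had -0.58 over 6. The medians were -0.03 and 0.01 without R821H replicate 1.

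The other lists of at least 2 miRNAs had medians between -0.47 and 0.26, beside 0.00 over all 625. The miR-17-92 cluster and its paralogs, known as an oncogenic cluster, had a median of -0.36 with 0 of 10 above 0, and -0.10 without R821H replicate 1. The miR-15/16 seed family, which restrains the cell cycle, had -0.34 with 2 of 7 above 0, and 0.21 without R821H replicate 1. The miR-29 family had -0.47 over 3, the miR-200 family -0.20 over 5, the miR-221 and miR-222 strands -0.12 over 4, the miR-30 family -0.04 over 5 and miR-23, miR-27 and miR-24 0.03 over 5. These 5 medians were -0.28, 0.05, 0.01, 0.02 and 0.12 without R821H replicate 1. The p53-induced miRNAs had -0.04 over 7, and -0.06 without R821H replicate 1. Mirtrons, whose hairpins are spliced introns and skip DROSHA, had 0.17 with 10 of 11 above 0, and -0.08 without R821H replicate 1. Capped hairpins, made from transcripts that keep a cap, had -0.26 over 5. Their median was -0.93 without R821H replicate 1 and 0.83 without R821H replicate 2. The turn in direction was that of miR-320b, miR-320c and miR-320d, near-identical miRNAs that may share reads. In the same 2 fits miR-320a was at -0.50 and -0.62, and miR-484 at 0.05 and 0.31. miR-451a, which is cut by Argonaute and does not need DICER, was at -0.77 and at -0.23 without R821H replicate 1. No list member was called. The most abundant members of their lists included miR-34a-5p, a direct target of p53, at -0.15 (SE 0.33, 95% interval -0.91 to 0.61), miR-200b-3p at -0.27 (SE 0.29, 95% interval -0.94 to 0.40), the mirtron miR-877-5p at 0.03 (SE 0.24, 95% interval -0.54 to 0.59) and the capped-hairpin product miR-320a at -0.57 (SE 0.38, 95% interval -1.45 to 0.32). These 4 were at -0.11, 0.05, -0.03 and -0.50 without R821H replicate 1. miR-877-5p had 177 and 229 CPM in the R1003Q libraries, against 187 and 211 CPM in the R821H libraries, and the groups overlapped. Among the markers of other cells, miR-142-3p, miR-9-5p and miR-145-5p were at 0.13, -0.26 and -0.04, and let-7i-3p, the most abundant let-7 3p strand, was at 0.52. These were 0.23, 0.06, 0.16 and 0.40 without R821H replicate 1. The colon epithelium and HCT116 markers had a median of -0.02, with 7 of 8 within 2-fold. The blood markers had -0.05 over 4, the muscle, liver and neuron markers 0.26 over 3 and the fibroblast markers -0.04 over 3. The 4 marker medians were 0.07, -0.07, 0.13 and 0.16 without R821H replicate 1. The summed level of the 7 blood markers was 604 and 576 CPM in the R1003Q libraries, against 711 and 590 CPM in the R821H libraries. The library titles name HCT116 and no other cell type, so these markers are given as miRNA levels in bulk RNA and not as a measure of other cells. Their part in any difference was not tested.

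R1855L gives a scale for what these libraries could show. Against WT, edgeR called 36 of 625 miRNAs in R1855L (5.76%), 34 of them lower, with a median log2 fold change of -1.97. For the same 36 the R1003Q over R821H median was 0.07, between -0.92 and 0.50, with 24 intervals within 2-fold and 35 within 4-fold, and none had an unadjusted p under 0.05. The R1855L change lay beyond both ends of the R1003Q over R821H interval, in size, for all 36. The 36 were chosen for their change in R1855L in the same fit, so its size there is a description. That all 36 lay beyond the bounds largely follows from this choice and is no test. miR-484, from a capped transcript, was at -5.11 in R1855L against WT. It had 1259.7 and 1375 CPM in the R1003Q libraries, against 1049 and 1296 CPM in the R821H libraries, which overlapped, at 0.17 (SE 0.35, 95% interval -0.64 to 0.98). miR-331-3p was at -3.94 in R1855L against WT and at 0.25 (SE 0.31, 95% interval -0.47 to 0.96) between R1003Q and R821H, and miR-222-3p was at -2.16 in R1855L against WT. miR-1229-3p, miR-1228-3p, miR-643, miR-615-3p and miR-3200-3p, the others among the 8 largest R1855L changes, were at 0.08, 0.32, 0.38, -0.03 and 0.00 between R1003Q and R821H. These 5 were at -0.23, -0.10, 0.93, -0.34 and -0.18 without R821H replicate 1, and miR-484, miR-331-3p and miR-1226-3p were at 0.05, 0.37 and -1.43. The 1 interval that went beyond 4-fold was that of miR-1226-3p, a mirtron strand, at -0.92 (SE 0.54, 95% interval -2.18 to 0.34). It rested on 15 and 8 reads in R1003Q, against 44 and 29 in R821H. miR-1228-3p rested on 9 and 5 reads in R1003Q, against 14 and 7 in R821H.

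Without R821H replicate 1 the 36 miRNAs had a median of 0.03, and single values spread from -1.43 to 0.93. The count within 2-fold was then 11, and it was 11 without R821H replicate 2 and 7 and 9 without R1003Q replicate 1 and 2.

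Strand ratios were compared for 174 hairpins, as log2 of 5p reads over 3p reads, so that a value above 0 means more 5p. limma called 0 of 174 ratios (0% called), and 2 (1.15%) had an unadjusted p under 0.05, those of miR-92b and miR-95. R1003Q and R821H did not overlap for 67 (38.5%), and 87 were shifted toward 5p in R1003Q. The dominant strand by group mean was the same in 165 of 174, which was 5p for 106 and 3p for 59, and it was the same in all 4 libraries for 157. Among the 51 hairpins with at least 10000 reads it was the same in all 51. The 9 that differed had mean ratios of at most 0.62 in size. They were miR-1225, miR-130b, miR-29c, miR-548a, miR-548e, miR-556, miR-5699, miR-628 and miR-6511a. Mean ratios had a Pearson correlation of 0.990 across the hairpins. The SD of the ratio difference was 0.61 within R1003Q, 0.76 within R821H and 0.55 to 0.74 between libraries of different groups.

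**Figure D5:**
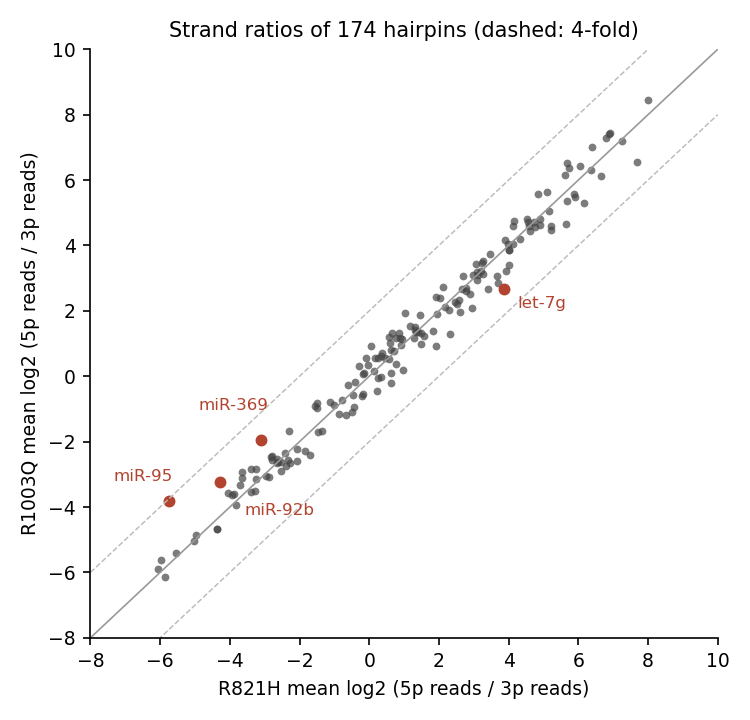
Each point is a hairpin, with its mean log2 ratio of 5p to 3p reads in R1003Q (vertical axis) and in R821H (horizontal axis); the solid line is equality and dashed lines are 4-fold. All 174 points fall between the dashed lines. The labelled hairpins, miR-92b, let-7g, miR-95 and miR-369, are some of those named for their change.

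An interval within 2-fold was obtained for 21 of 174 ratios (12.1%), within 3-fold for 103, within 4-fold for 142 (81.6%) and within 8-fold for 172. The median farthest bound was 2.82-fold. The count within 2-fold was 0 and 1 without R1003Q replicate 1 and 2, and 0 without either R821H library. The 8 hairpins with most reads had changes between -0.36 and 0.43, with farthest bounds from 2.02-fold to 3.94-fold. For miR-21, the log2 ratio was 5.35 and 5.34 in the R1003Q libraries, against 6.14 and 5.19 in the R821H libraries. R821H replicate 1 was the highest and R821H replicate 2 the lowest, at a change of -0.32 (SE 0.49, 95% interval -1.42 to 0.79). For miR-29a, both of whose strands are abundant, the ratio was -0.84 and -0.73 in the R1003Q libraries, against -1.04 and -1.21 in the R821H libraries. The R1003Q libraries were above both R821H libraries, at 0.34 (SE 0.35, 95% interval -0.46 to 1.14). For miR-221 the ratio was -3.46 and -2.32 in the R1003Q libraries, against -1.69 and -3.38 in the R821H libraries, and the change was -0.36 (SE 0.71, 95% interval -1.98 to 1.27), so libraries of one group differed by over 2-fold. Without R821H replicate 1 the changes of miR-21, miR-29a and miR-221 were 0.16, 0.43 and 0.49.

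miR-92b had 5p to 3p log2 ratios of -3.22 and -3.27 in the R1003Q libraries, against -4.51 and -4.04 in the R821H libraries. Both R1003Q libraries held relatively more 5p, the minor strand, and the groups did not overlap. The change was 1.04 (SE 0.37, 95% interval 0.21 to 1.86), with a limma adjusted p of 0.987. It was 0.80 without R821H replicate 1, and 1.05 with a depth term (limma adjusted p = 0.787). The WT libraries had -4.42 and -4.54. miR-95 had -4.68 and -2.96 in the R1003Q libraries, against -4.55 and -6.92 in the R821H libraries, which overlapped, and rested on 3 and 6 reads of its 5p strand in R1003Q, against 18 and 0 in R821H.

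The lowest changes without overlap belonged to let-7g at -1.18 (SE 0.99, 95% interval -3.43 to 1.08), miR-1296 at -1.14, miR-335 at -0.98, miR-26b at -0.98 and miR-93 at -0.87. let-7g had ratios of 2.71 and 2.64 in the R1003Q libraries, against 4.71 and 2.99 in the R821H libraries, so R821H replicate 1 stood apart, and the change was -0.32 without it. miR-335, miR-26b and miR-93 were then at -0.61, -0.54 and -0.36. miR-1296 had ratios of 6.28 and 6.80 in the R1003Q libraries, against 7.11 and 8.25 in the R821H libraries, where the higher R821H library was replicate 2, and was at -1.71 without replicate 1. It rested on 14 and 5 reads of its 3p strand in R1003Q, against 21 and 3 in R821H. The highest, beside miR-92b, were miR-369 at 1.16, miR-454 at 0.92, miR-1226 at 0.87 and miR-576 at 0.74. miR-369 had ratios of -1.93 and -1.97 in the R1003Q libraries, against -2.47 and -3.74 in the R821H libraries, on 12 and 5 reads of its 5p strand in R1003Q, against 22 and 2 in R821H. Without R821H replicate 1 these 4 changes were 1.80, 0.61, 1.32 and 0.61. The miR-1226 ratio rested on 15 and 8 reads of its 3p strand in R1003Q, against 44 and 29 in R821H. For miR-590 the ratios were 2.27 and 1.57 in the R1003Q libraries, against 2.04 and 1.86 in the R821H libraries, which overlapped, at a change of -0.03 (SE 0.49, 95% interval -1.13 to 1.08).

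Against WT, limma called 13 of 174 strand ratios in R1855L (7.47%). For these 13 the change between R1003Q and R821H had a median of 0.12 and lay between -0.73 and 0.69, with 4 intervals within 2-fold and 13 within 4-fold. The R1855L change was larger than the farthest bound for all 13. These 13 were chosen for a large R1855L change in the same fit, so that count largely follows from the choice and is no test. miR-331, at 4.20 in R1855L against WT, was at -0.23 (95% interval -1.07 to 0.61), and miR-25, at 2.77, was at -0.03 (95% interval -0.81 to 0.74).

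The median log2 fold change was -0.02 for 268 5p strands, -0.02 for 243 3p strands and 0.11 for 114 names with no arm. By first base of the 5p strand, the median strand change was -0.07 for 60 hairpins with U and 0.11 for 42 with A. It was 0.23 for 20 with G and 0.07 for 28 with C. The ranges between quartiles overlapped, at -0.32 to 0.30, -0.26 to 0.39, -0.02 to 0.55 and -0.19 to 0.27 in that order. Differences between these bases were not tested, and no values without R821H replicate 1 were computed for them. The levels of both strands, grouped by that base, had median log2 fold changes of -0.04 over 170 miRNAs with U, -0.11 over 118 with A, 0.07 over 66 with G and 0.04 over 69 with C. By loop length the median strand change was -0.01 for 49 hairpins with short loops, 0.06 for 45 with middle loops and 0.08 for 46 with long loops, beside 0.00 over all 174.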

How the data were processed

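Groups and replicate numbers came from the library titles. Per the submitters' processing notes, cutadapt, BWA and bedtools were used with hg38 and mm10. For their versions, the role of mm10 and the miRNA annotation release, nothing is given in the sources used here. The authors deposited 1 table of estimated counts per library, not normalised. A name missing from a table counted as 0, and estimated counts were rounded.

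Names kept by filterByExpr (625 of 1818, at least 99.8% of the reads of each library) were scaled by TMM and fitted with edgeR 4.0.16 (R 4.3.3) over all 8 libraries, group only. Intervals are the log2 fold change plus and minus the t quantile times the quasi-likelihood SE. Strand ratios, with a pseudocount of 0.5 and a minimum of 80 reads per strand in all, were fitted with limma 3.58.1. Benjamini-Hochberg adjustment covered all features. Named miRNAs were the 15 most abundant, the 5 highest and 5 lowest without overlap at a mean of at least 50 CPM, the 5 narrowest intervals, the 8 largest R1855L changes, 4 features named in earlier fits, and the most abundant list members; for strand ratios they were the 8 hairpins with most reads and the 5 highest and 5 lowest without overlap. Those with an unadjusted p under 0.05 and miR-33a, miR-33b-3p, miR-130, miR-361-5p, miR-4286 and miR-320b were added after seeing values. The members and lists were chosen with earlier results of these data known. The widest gap in log library totals divided deep from shallow libraries. Alternatives were DESeq2 1.42.0, other scalings and filters, a replicate block, a depth term and each library left out. The scripts were tested on simulated data. Floors cover counting error only, since the labels name no molecular identifiers. Figures were drawn with matplotlib 3.10.9.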

Additional observations from a re-analysis of the deposited data

How the results depend on the processing

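No alternative reversed a direction that had been called, since no miRNA or ratio was called. Calls stayed at 0 of the miRNAs and ratios in every alternative but 1: with only the shallow libraries, chosen after seeing the data, 9 miRNAs and 2 ratios were called, on 1 residual degree of freedom, so that the spread came from the R1003Q pair alone. Those miRNAs were miR-125b-5p, miR-1260b, miR-181a-5p, miR-320a, miR-320b, miR-33b-5p, miR-4286, miR-769-5p and miR-96-5p, and that fit gave 324 of 610 level intervals (53.1%) and 59 of 174 ratio intervals within 2-fold. The left-out fits tested 674 to 686 names, so their shares are given beside counts. The count of level intervals within 2-fold (202 of 625, 32.3%) was 366 with a depth term, 247 of 533 (46.3%) with only the 4 libraries and 0 with simultaneous intervals. It was from 63 to 238 (9.22% to 35.3%) with each library left out (63 and 68 without R1003Q replicate 1 and 2, 90 and 74 without R821H replicate 1 and 2). The count within 4-fold (504, 80.6%) was 304 of 338 with a filter at 50 CPM, 497 of 533 (93.2%) with only the 4 libraries and 49 with simultaneous intervals. It was from 387 to 538 (56.7% to 78.7%, none above the share with all libraries) with a library left out. With only the 4 libraries, 29 of the 533 miRNAs had an unadjusted edgeR p under 0.05. Of the 36 miRNAs called in R1855L, from 7 to 26 were within 2-fold with a library left out. The count of ratio intervals within 2-fold (21 of 174) was 46 with only the 4 libraries, 69 with the depth term, 0 with simultaneous intervals and from 0 to 35 with a library left out, and within 4-fold (142) it was 5 with simultaneous intervals and from 89 to 153 with a library left out. The replicate block, in which numbers pair libraries, gave 167 level intervals and 7 ratio intervals within 2-fold and 0 calls. Deviations of same-numbered libraries had a correlation of -0.12, and the crossed replicate block, added after seeing the data, gave 154 and 7 intervals within 2-fold. Scaling by total counts moved the median of all miRNAs to 0.10. The cause was not tested.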
